A study of Mus musculus with 12 samples.

Results

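The Egr and Nr4a genes are families of activity-induced transcription factors, and the H2A.Z peaks assigned to them are described here in the nucleus accumbens of mouse brain. The members were the 4 zinc finger genes Egr1, Egr2, Egr3 and Egr4 and the 3 orphan nuclear receptor genes Nr4a1, Nr4a2 and Nr4a3. They were chosen by name: every peak carrying one of these names in the authors' annotation was taken, at any distance from a start site. All 7 genes had a peak in at least 1 list, out of 16758 gene names in the lists. They accounted for 10 of 24655 peaks in the saline-saline list (SS), 10 of 23170 in saline-cocaine (SC), 0 of 6417 in cocaine-saline (CS) and 2 of 4827 in cocaine-cocaine (CC).

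The study profiled the histone variant H2A.Z by chromatin immunoprecipitation and sequencing in bulk accumbens tissue, with 3 samples in each of the 4 conditions, 12 in all. SS received saline at both stages. SC (named acute in the labels) received saline and then cocaine, CS (withdrawal) cocaine and then saline, and CC (challenge) cocaine at both stages. The sources used here give no dose, interval, strain, age or sex, and the total H3 libraries named in the design were not analysed here. Each condition is represented by 1 peak list, so values below have no replicate error and no comparison between conditions could be tested. In bulk tissue, H2A.Z lost in a few cell types and less H2A.Z in every cell cannot be told apart.

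The Egr proteins bind GC-rich DNA through a zinc finger domain, and the Nr4a proteins are nuclear receptors that act without a known activating hormone. Both families are immediate early genes: synaptic activity switches them on within minutes through serum response factor, CREB and MEF2 at their promoters, with no need for new protein. In striatum they are induced by dopamine and by psychostimulants. H2A.Z replaces H2A in nucleosomes that flank active and inducible start sites, where its exchange has been linked to neuronal gene induction.

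The promoters are shown first, because the results turn on whether H2A.Z lies on them. The RefSeq table of promoters (GRCm38.p6, the assembly of mm10) matched 5 of the 7 genes with 9 windows, 5 of them for Egr2. The sequences give the 250 bases before the start site, 5′ to 3′ on the strand of the gene. Capitals mark matches on either strand to the motifs searched: the CArG box bound by serum response factor, the cAMP response element TGACGTCA and its core TGACG, which reads CGTCA on the other strand, the EGR site GCGNGGGCG, the Nr4a monomer site AAAGGTCA and TATAAA. The core is contained in the full element. Windows overlapped by an SS peak come first: Nr4a2 at chr2:57124004-57124253 (minus strand), Nr4a1 at chr15:101266596-101266845 (plus), Egr4 at chr6:85513590-85513839 (minus) and the upstream Egr2 start at chr10:67535249-67535498 (plus). The Egr4 sequence was covered only in part, nearest the start, since its peak ended at 85513699 in SS and 85513711 in SC. The Egr4 core 177 bases before the start thus lay outside both peaks.
Nr4a2: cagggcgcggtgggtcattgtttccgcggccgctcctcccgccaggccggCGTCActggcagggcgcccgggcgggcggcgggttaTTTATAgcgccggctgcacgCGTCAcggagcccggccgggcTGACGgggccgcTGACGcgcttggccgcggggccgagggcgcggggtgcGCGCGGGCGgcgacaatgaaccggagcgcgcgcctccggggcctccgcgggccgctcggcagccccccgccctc
Nr4a1: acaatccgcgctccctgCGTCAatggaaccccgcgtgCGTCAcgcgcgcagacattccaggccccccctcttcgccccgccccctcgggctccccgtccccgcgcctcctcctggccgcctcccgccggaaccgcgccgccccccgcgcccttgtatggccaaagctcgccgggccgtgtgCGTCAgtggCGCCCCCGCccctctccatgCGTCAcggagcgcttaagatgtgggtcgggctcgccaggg
Egr4: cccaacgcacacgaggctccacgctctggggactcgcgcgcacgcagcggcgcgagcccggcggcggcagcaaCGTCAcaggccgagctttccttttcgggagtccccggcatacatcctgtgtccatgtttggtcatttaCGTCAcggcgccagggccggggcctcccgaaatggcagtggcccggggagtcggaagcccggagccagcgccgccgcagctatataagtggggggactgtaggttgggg
Egr2, upstream start: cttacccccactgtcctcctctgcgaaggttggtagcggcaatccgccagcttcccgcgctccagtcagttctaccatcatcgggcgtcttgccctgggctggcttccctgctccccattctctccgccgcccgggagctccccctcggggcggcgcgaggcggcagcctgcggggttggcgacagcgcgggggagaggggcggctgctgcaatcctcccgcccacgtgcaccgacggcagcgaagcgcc

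Short sites are shown from starts that lay under no peak in any list: the CArG box of a downstream Egr2 start at chr10:67537792-67537821 (plus strand), and 2 TGACG cores at Nr4a3, chr4:48045070-48045099 (plus).
Egr2, downstream start: tcagtCCATATATGGgcagcgaCGTCAcgg
Nr4a3: agggTGACGtagcgtcccatgtCGTCAcat

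The core TGACG occurred 4 times each in the Nr4a1, Nr4a2 and Nr4a3 windows and 2 times in Egr4. It occurred 2 times in each of 3 downstream Egr2 windows, which overlap, and not in the other 2 Egr2 windows, while 17.8% of all 32851 promoter windows held it at least once. The EGR site occurred once each at Nr4a1 (first base 60 bases before the start) and Nr4a2 (74 bases before), against 4.7% of all windows. A CArG box stood in the 4 downstream Egr2 windows, which overlap in part, and in 1.47% of all windows. The full cAMP response element (1.55% of all windows) and the Nr4a monomer site (1.34%) matched none of the 9 windows, and TATAAA (12.4%) matched Nr4a2 alone, on the reverse strand 164 bases before the start. All 9 windows were richer in CpG than the median window, which held 6 CpG in 250 bases. Counts ran from 15 at a downstream Egr2 start to 34 at Nr4a1 and 44 at Nr4a2, whose count was at percentile 99.6.

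Each of the 7 genes carried H2A.Z in SS, and each carried it again in SC at the same places. All 10 SS peaks of these genes were overlapped by an SC peak assigned to the same gene, where 75.7% of all SS peaks were overlapped. A promoter peak, meaning a peak whose middle lay within 1000 bp of the start site, was present for 6 of the 7 genes in SS and for the same 6 in SC. These were Egr1, Egr2, Egr4, Nr4a1, Nr4a2 and Nr4a3. Promoter peaks were common: of the 16758 gene names in the lists, 13585 had one in SS and 12948 in SC. Of all SS promoter genes 88.2% had one in SC, so 6 of 6 (95% exact binomial interval 54.1 to 100%) does not set these genes apart. Nr4a3 qualified only through an internal start site, and Egr2 only through the upstream one of its start sites. Egr3 had no promoter peak in either list.

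**Figure D1:**
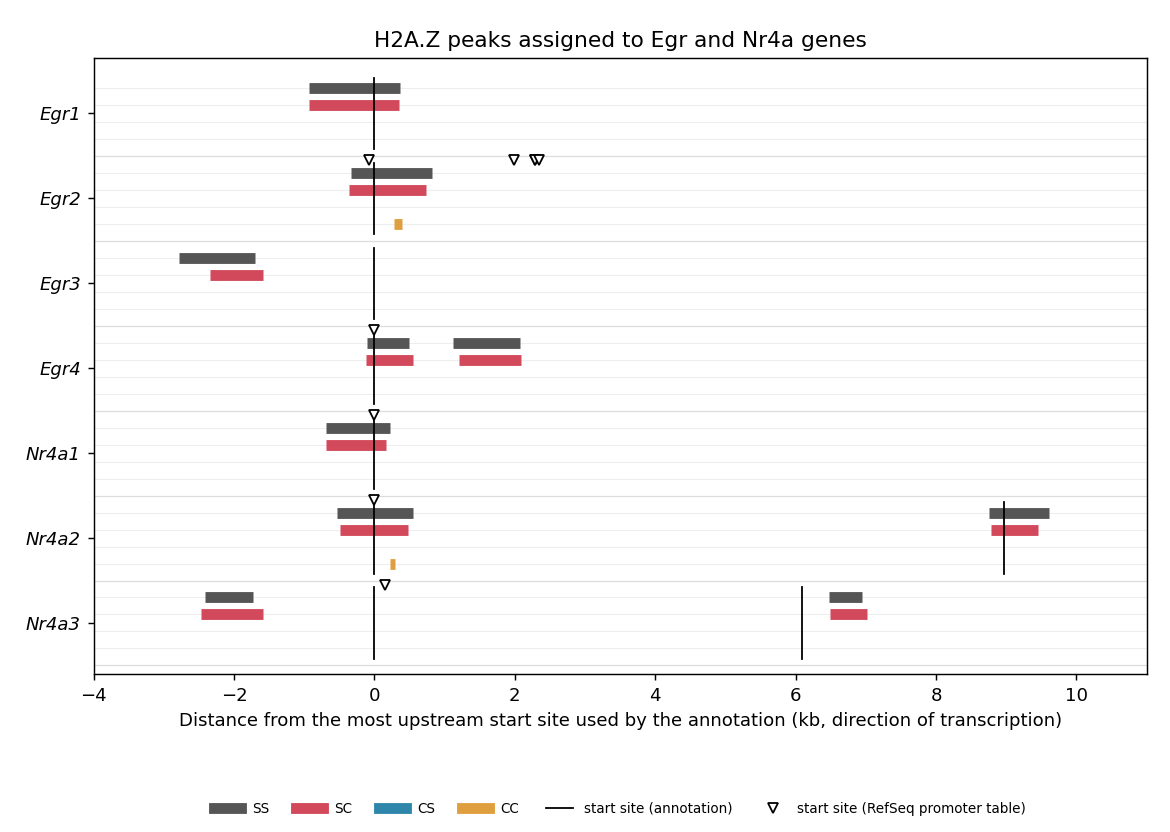
Peaks of each gene by list, as bars from start to end in kb from the most upstream start site of the annotation, oriented in the direction of transcription; vertical lines are start sites used by the annotation and open triangles those of the RefSeq promoter table. SS and SC bars lie at the same places, the CS lane is empty, and the 2 CC bars (110 bp at Egr2, 67 bp at Nr4a2) lie inside the wider SS and SC bars.

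Egr1, a zinc finger factor widely used as a marker of neuronal activity, had 1 peak in SS and 1 in SC. The SS peak spanned chromosome 18, 34860281 to 34861565 (mm10, as in the authors' list). It covered the start site, with its middle 284 bp upstream, and was 1284 bp wide, wider than or equal to 88.6% of SS peaks. The SC peak began at the same position and was 1277 bp wide. The authors' fold enrichment over background was 6.58 in SS, at percentile 76 of that list (the share of its peaks at or below that value), and 7.84 in SC, at percentile 73.5. Fold values cannot be compared from list to list, and a percentile places a peak only within its own list.

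Egr2, known as Krox20 and also for its part in myelination, had its SS peak at chromosome 10, 67535252 to 67536398. The peak covered the upstream start and its middle lay 242 bp downstream of it. Its fold enrichment was 4.9 in SS (percentile 60.1) and 9.83 in SC (percentile 80.1). RefSeq places 4 further Egr2 starts downstream, and these lay 1168 to 1532 bp beyond the nearest edge of the SS peak and 1243 to 1607 bp beyond that of the SC peak. The CArG boxes printed or counted above thus lay in windows without an H2A.Z peak in any list, while the upstream window under the SS and SC peaks held none of the motifs searched.

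Egr3 differed in position. Its only peak lay upstream of the start, with the middle at 2245 bp in SS (chromosome 14, 70074417 to 70075499, fold enrichment 6.32, percentile 74.7) and at 1960 bp in SC (9.68, percentile 79.5). The nearest edge was 1704 bp from the start in SS and 1584 bp in SC. Among protein-coding genes with any SS peak, 6.43% had none within 1000 bp of the start.

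Egr4, the shortest of these loci in RefSeq, had 2 peaks in SS and 2 in SC. The first covered the start, with its middle 189 bp downstream in SS (chromosome 6, 85513102 to 85513699, fold enrichment 5.29, percentile 65.8) and 214 bp downstream in SC (7.42, percentile 72.3). The second lay inside the gene, 1597 bp downstream in SS (5.93, percentile 72) and 1642 bp downstream in SC (7.04, percentile 71.1). In SS the intragenic peak therefore had the higher fold enrichment of the pair, and in SC the one at the start did.

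Nr4a1 (Nur77) had 1 peak in SS and 1 in SC, over its start. It spanned chromosome 15, 101266153 to 101267071 in SS, with its middle 234 bp upstream, and was 918 bp wide. Its SC counterpart was 848 bp wide with its middle 261 bp upstream. The fold enrichment was 5.62 in SS (percentile 69.3) and 5.89 in SC (percentile 64). Among the 5 genes with a peak over a start site, Nr4a1 and Egr1 were the ones with the peak middle clearly upstream in both lists.

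Nr4a2 (Nurr1), which midbrain dopamine neurons need for their development, carried the strongest H2A.Z peak of both families. The peak at its distal start spanned chromosome 2, 57123454 to 57124537 in SS, with the middle 8 bp from the start. Its fold enrichment of 10.5 ranked 1527 of 24655 SS peaks, and 14.3 in SC ranked 622 of 23170. Another peak lay at an internal start 8965 bp downstream, at 57114393 to 57115247, with 7.02 in SS (percentile 77.9) and 13 in SC (percentile 93.8). Both Nr4a2 starts were covered by H2A.Z in both lists.

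Nr4a3 (Nor1) had 2 peaks in SS and 2 in SC, none of them over a start. One lay upstream with its middle 2070 bp from the start in SS (chromosome 4, 48042737 to 48043430, fold enrichment 5.52, percentile 68.4) and 2029 bp in SC (8.78, percentile 76.3). The other lay 614 bp downstream of an internal start in SS (48051625 to 48052100, 3.79, percentile 37.2) and 656 bp downstream in SC (6.54, percentile 68.6). This internal peak was the only one of the 10 below the median fold enrichment of the SS list (4.34). Among SS promoter peaks alone it stood at percentile 19.3, and Egr2 (42.3) and the Egr4 start (49.8) were also below the median. The other promoter peaks of these genes lay above it. By the start sites of the annotation, Egr3 and Nr4a3 were alike in an upstream peak whose nearest edge stayed clear of the start in both lists. The distances were 1704 and 1584 bp for Egr3 and 1723 and 1583 bp for Nr4a3. This was not particular to them, since the Egr2 peak also lay upstream of the downstream RefSeq starts of Egr2. It stayed clear of those by 1168 to 1532 bp in SS and 1243 to 1607 bp in SC.

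In all, 3 of the 10 SS peaks fell in the authors' class of promoter peaks out to 3000 bp (Egr3, the intragenic Egr4 peak and the upstream Nr4a3 peak), a class that held 5.53% of gene-assigned SS peaks. The other 7 peaks were promoter peaks by the definition used here, and 5 of these 7 had their middle downstream of the start in SS, against 58.5% of all SS promoter peaks. Egr4, Nr4a2 and Nr4a3 had 2 peaks in SS and SC, 3 of 7 genes, where 20.3% of genes with a peak had at least 2 in SS and 21.7% in SC. With 7 genes these shares are a description only.

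**Figure D2:**
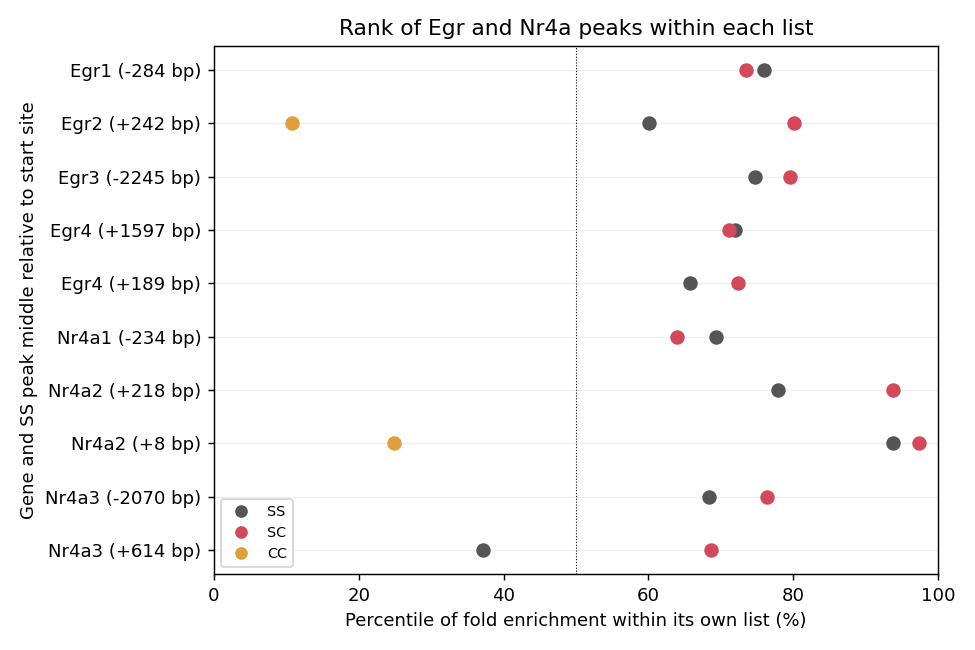
Percentile of the authors' fold enrichment of each peak among all peaks of its own list; each row is 1 peak, named by its gene and the SS position of its middle relative to the start site, and the dotted line marks the median of a list. In SS and SC all peaks except the internal Nr4a3 peak in SS lie right of the median, and the 2 CC peaks lie left of it at percentiles 10.8 and 24.8.

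The comparison of SC with SS concerns cocaine given to animals with a saline history. For a comparison on rankings of equal length, SS and SC peaks that overlapped each other and no other peak were paired, giving 17568 pairs, and the fold enrichment was ranked within these pairs in each list. The peaks of Egr2, Nr4a2 and Nr4a3 stood higher in the SC ranking. The internal Nr4a3 peak went from percentile 23.3 to 59.6, a difference of 36.3 points that 0.791% of all pairs reached or exceeded. Egr2 went from 46.8 to 74.2 (27.4 points, reached by 2.72% of pairs), and the internal Nr4a2 peak from 69.5 to 91.9 (22.3 points, 4.98%). Peaks weak in one ranking have more room to stand higher in another, so each was also set beside pairs of like SS rank, in 10 groups of equal size. There, 1.59% of pairs stood as much higher as the internal Nr4a3 peak, 1.04% as Egr2 and 1.14% as the internal Nr4a2 peak. These peaks were singled out for their large differences, so the shares are not a test. For the other member peaks the share ran from 5.46% (distal Nr4a2 start) to 51.7% (Nr4a1).

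Smaller differences were found at the other peaks. The upstream Nr4a3 peak stood 12.2 points higher in SC, the Egr4 start 10.4, Egr3 8.12, the distal Nr4a2 start 5.07 and the intragenic Egr4 peak 0.973. Egr1 ranked lower in SC, with a difference of -1.25 points (percentile 67 to 65.7), and so did Nr4a1, with -4.17 points (58.2 to 54.1). In all, 8 of the 10 peaks ranked higher in SC, against 48.6% of all pairs. The median difference was 9.24 points for these peaks and -0.327 for all pairs, and by q-value it was 2.76 and 0.211. Among pairs whose SS peak lay within 1000 bp of a start, the median was -0.922. The 10 peaks are not replicates, since Egr4, Nr4a2 and Nr4a3 gave 2 each, so the count and median are a description only.

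The size of these differences depended on which of the authors' values was ranked. With the q-value in place of the fold enrichment, 8 of the 10 peaks again ranked higher in SC, where 51.4% of all pairs did. Of these 8, 7 also ranked higher by fold enrichment. Egr2 then differed by 5.78 points (reached by 24.3% of pairs) and the internal Nr4a2 peak by 2.02 points (38.8%). The internal Nr4a3 peak kept a difference of 29.1 points (1.99%). A fold enrichment and a q-value differ in how they depend on depth and background, which were not analysed here.

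**Figure D3:**
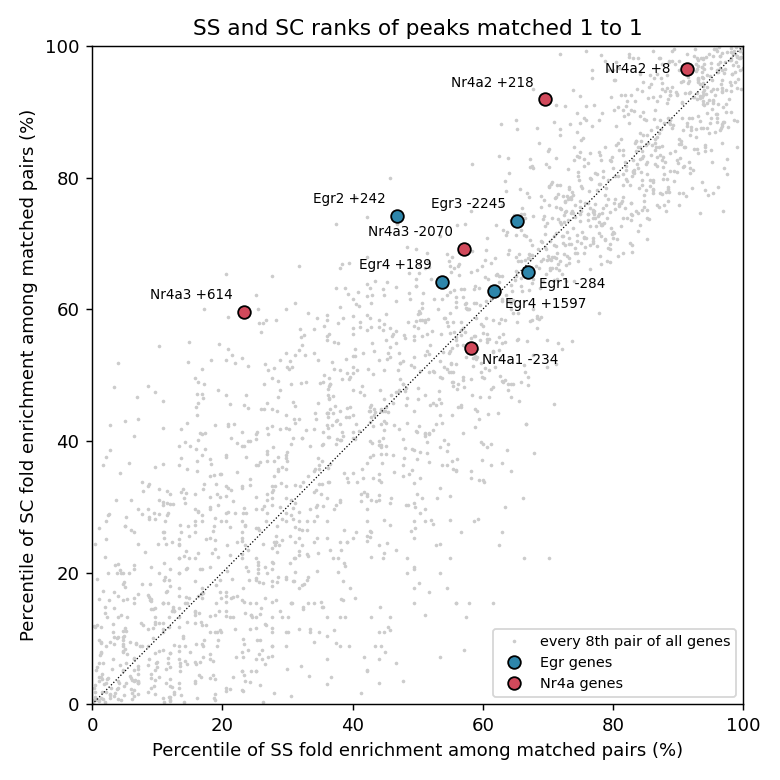
Percentile of fold enrichment in SC (vertical) against SS (horizontal) among 17568 pairs of peaks matched 1 to 1; grey dots are every 8th pair, coloured points are peaks of Egr and Nr4a genes with the SS position of their middle in bp from the start, and the dotted line marks equal rank. Points of Egr2, Nr4a3 and the internal Nr4a2 start lie farthest above the line (27.4, 36.3 and 22.3 points), and Egr1 and Nr4a1 lie just below it.

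Peak positions moved little between SS and SC. The middles of the paired peaks differed by a median of 41.2 bp, against 50.5 bp over all pairs. The smallest difference was 3.5 bp at Egr1. The largest was 285 bp at Egr3, more than or equal to 97.2% of all pairs. It went with a peak of 1082 bp in SS and 752 bp in SC, whose outer edge was nearer to the start in SC.

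Withdrawal after cocaine was represented by CS, again set against SS. No CS peak carried the name of an Egr or Nr4a gene, and none of the 10 SS peaks was overlapped by any CS peak. Over all SS peaks 20.3% were overlapped, a share that would correspond to about 2 of 10 peaks. Of the 6 members marked at the promoter in SS, CS held 0 (95% exact binomial interval up to 45.9%), where it held 28.8% of all SS promoter genes. The interval includes that share, so with 6 genes the absence cannot be told apart from the smaller number of peaks in CS as a whole. The SS promoter genes were also divided into 10 groups of equal size by fold enrichment. Genes in the same group as a member had a CS promoter peak in 13.4% (Nr4a3), 29% (Egr1), 30.6% (Nr4a2), 38.1% (Egr2) and 42.6% (Egr4 and Nr4a1) of cases. The nearest CS peak was 62520 bp from the Egr4 start, 93320 bp from Nr4a1 and 113941 bp from Nr4a2. It was 234932 bp from the Nr4a3 start and 249686 bp from the upstream Egr2 start. These distances were not set beside those of other genes.

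The cocaine challenge list, CC, held 2 of these genes. Egr2 and Nr4a2 carried a promoter peak in CC and the other 5 genes carried no peak at all. This is 2 of 6 genes with an SS promoter peak (interval 4.33 to 77.7%), against 22.7% of all SS promoter genes. At the level of peaks it is 2 of 10, against 15.7%. In the group of like SS fold enrichment, 30.2% of genes (Egr2) and 25.1% (Nr4a2) were held. Both shares for the members lay near those of the whole list.

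The Egr2 peak in CC spanned 67535862 to 67535972 on chromosome 10. It was 110 bp wide, 9.6% of the SS width, and its middle lay 334 bp downstream of the upstream start. The Nr4a2 peak in CC spanned 57123707 to 57123774 on chromosome 2, 263 bp downstream of the distal start. At 67 bp it had the shortest width found in the CC list, shared by 566 peaks. Both lay wholly inside the SS and the SC peak of the same gene and neither reached the start site or its RefSeq promoter window.

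These CC peaks were weak within their list. The fold enrichment was 4.07 at Egr2 (percentile 10.8, q = 0.00891) and 4.35 at Nr4a2 (percentile 24.8, q = 0.00776). The median of the CC list was 4.8. Neither passed a −log10 q of 5, which left the CC list with 0 of these genes. Among the 3346 SS and CC peaks paired 1 to 1, of which 51.4% ranked higher in CC, Egr2 went from percentile 32.8 to 8.61 and Nr4a2 from 90.5 to 23.5. The differences were -24.2 and -67 points, and 74.5% and 94.9% of all pairs had an equal or higher difference. Ranks varied widely between these lists: over all pairs the 5th and 95th percentiles of the difference were -67.4 and 66.2 points. The internal Nr4a2 start, next after the distal start among the 10 peaks by SS fold enrichment, had no CC peak.

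Measured against SC, the same 2 of 6 promoter genes had a peak in CC, where 23.3% of SC promoter genes did. Measured from CC, neither Egr2 nor Nr4a2 had a promoter peak in CS, where 52.4% of CC promoter genes had one. With 2 genes this comparison gives no more than their names.

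**Figure D4:**
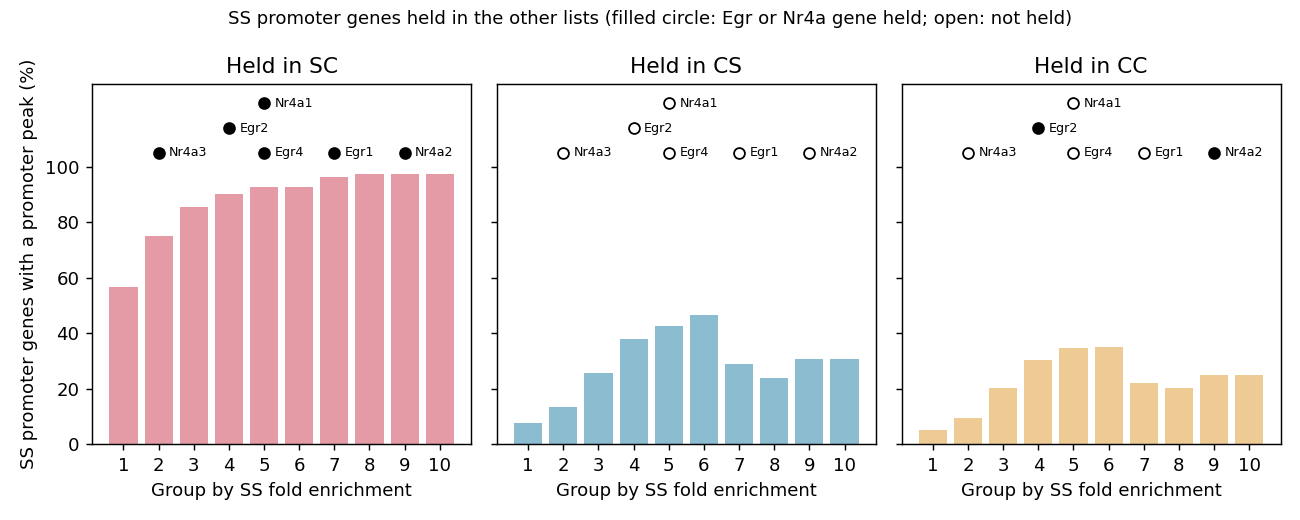
Share of SS promoter genes held at the promoter in SC, CS and CC (bars, %), in 10 groups by SS fold enrichment from the weakest (1) to the strongest (10); circles above the bars place each Egr or Nr4a gene in its group, filled where it had a promoter peak in that list. All 6 circles are filled in SC, none in CS, and those of Egr2 and Nr4a2 in CC.

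The lists themselves differ along the same line. The median peak spanned 734 bp (SS), 727 bp (SC), 110 bp (CS) or 107 bp (CC), and peaks with −log10 q of at least 5 made up 97.7%, 97.9%, 17.8% and 19.6% in the same order. How far the missing Egr and Nr4a peaks follow from this was not tested. Cutting every list to its 4827 strongest peaks left 1 gene with a promoter peak in SS (Nr4a2), 2 in SC (Egr2 and Nr4a2), 0 in CS and 2 in CC (Egr2 and Nr4a2). The CC list is whole at that length, while 5 of the 6 SS genes fell below it. Markers of medium spiny neurons, the main cell type of the accumbens, had promoter peaks at 11 of 12 genes in SS. The count was 8 in SC and 0 in CS and CC, where 88.2%, 28.8% and 22.7% of all SS promoter genes were held. Of the 16758 gene names in the lists, 13585 had a promoter peak in SS. Genes without a peak in any list are not among these names, so the marker counts are a description only. Microglial markers had 0 of 4 in every list. Astrocyte markers had 2 of 4 in SS and SC and oligodendrocyte markers 1 of 4, with 0 in CS and CC for both. Endothelial markers had 3 of 4 in SS, 2 in SC, 1 in CS (Kdr) and 0 in CC.

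Genes that act with these factors were counted in the same way. Of 21 such genes, 18 had a promoter peak in SS and 18 in SC, 17 of them in both, while 2 had one in CS and 1 in CC. Of the 18 in SS, 17, 2 and 1 were thus held in SC, CS and CC, beside 88.2%, 28.8% and 22.7% of all SS promoter genes. Both corepressors of Egr proteins were marked: Nab1 had a fold enrichment of 8.71 in SS (percentile 85.1) and 9.94 in SC (percentile 80.5). Nab2, itself induced by Egr factors, stood at 2.8 (percentile 3.26) in SS and 6.19 (percentile 66.4) in SC. The retinoid X receptors, partners of Nr4a1 and Nr4a2 in heterodimers, had promoter peaks at all 3 genes in SS and SC and at none in CS and CC, with Rxra the strongest in SS (8.79, percentile 85.5).

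The 3 promoter peaks in CS and CC were those of upstream factors, 2 of 8 genes in CS and 1 of 8 in CC. Of all SS promoter genes, 28.8% were held in CS and 22.7% in CC, so these counts do not set the role apart. Serum response factor (Srf) had a fold enrichment of 4.02 in CS (percentile 14.5) and 7.55 in SS (percentile 80.1). Mef2a had 4.96 in CS (percentile 63.6) and 6.55 in SS (percentile 75.9). Elk4, a partner of serum response factor, had 3.78 in CC (percentile 4.08) and 9.46 in SS (percentile 88.8). Elk3 was the strongest of the group in SS (10.4, percentile 93.3). Elk1 had a promoter peak in SC alone (3.69, percentile 32.4). Elk1 lies on chromosome X, where 38.4% of SC peaks had no overlapping SS peak, against 18.8% on the other chromosomes.

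Among known target genes, 6 of 8 had a promoter peak in SS, 5 in SC and none in CS or CC. Of all SS promoter genes, 88.2%, 28.8% and 22.7% were held in SC, CS and CC. Among the 16758 gene names in the lists, 13585 had a promoter peak in SS. With 8 genes the counts of targets are a description only. Ret, a growth factor receptor regulated by Nr4a2 in dopamine neurons, was the strongest in SS (11.2, percentile 96.3) and had 14.4 in SC (percentile 97.5). Gabra4, a GABA receptor gene regulated by Egr3, had 10.6 in SS (percentile 94.3) and 13.3 in SC (percentile 94.8). The synaptic gene Arc, a target of Egr factors, had 3.53 in SS (percentile 28.6) and 4.64 in SC (percentile 49.8). The dopamine transporter gene Slc6a3 was marked in SS (5.77, percentile 70.7) and in no other list. Th and Slc18a2, dopamine synthesis and storage genes, had none in any list.

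Genes of most similar profile were sought by the summed absolute difference of promoter peak percentiles over the 4 lists, with 0 for no peak, among 12691 genes. They were Plxnc1 for Egr1 (summed difference 0.485), Grin3a for Egr2 (11.7), Tm9sf4 for Egr4 (0.0789), Mars for Nr4a1 (0.907), Tc2n for Nr4a2 (2.37) and Bmpr1b for Nr4a3 (1.9). Egr2 had the least close neighbour, since Grin3a had no CC peak. Likeness over 4 lists is a description.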

How the data were processed

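H2A.Z was profiled by chromatin immunoprecipitation sequencing in 12 accumbens samples, 3 per condition, and grouped by sample title. The 4 annotated peak lists, 1 per condition, were used as deposited. The submitters' processing notes name mm10, cutadapt, HISAT, SAMtools and MACS2, with versions, settings, control and any pooling of samples not given in the sources used here. Per the file headers, each peak has the authors' fold enrichment, a ratio over background. Per the file headers, each peak also has a q-value on a linear scale. The signed distance deposited by the authors equalled the peak middle minus the start site within 0.5 bp.

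Lists were compared by gene name and by overlap of at least 1 bp, with pandas 2.3.3 and scipy 1.17.1. Overlap and ranking code was tested on simulated peaks. Exact binomial (Clopper-Pearson, 95%) intervals cover counting only, and depth was not analysed here. Motifs were searched in the 250 bases before RefSeq start sites. Members, gene lists and tests were chosen with earlier results of these data known. Named genes are the 7 members, 21 partners, regulators and targets fixed by role (those with a CS or CC promoter peak, the strongest in SS of each role, and some others chosen after their values were seen), and the gene nearest in profile to each member. Matched ranking was added after the data were seen, and alternatives covered peak thresholds, windows, overlap and ranking.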

Additional observations from a re-analysis of the deposited data

How the results depend on the processing

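No paired analysis was possible because each condition has 1 list and no values per sample; for the same reason no replicate could be left out. Of 31 recalculated counts of peaks or genes in SS, SC and CC, 22 stayed within 1.5 times the reported value. Some of these could not change. Every member peak lay within 10 kb of its start site, so a limit at that distance removed none. The CC list is whole at 4827 peaks, so its own counts at that length were fixed. The number that stayed is therefore no measure of robustness. The CS counts were 0 from the start, so that stricter settings could only return 0. At −log10 q of at least 5, CC held 0 member peaks and 0 promoter members in place of 2. With each list at its 4827 strongest peaks, member peaks fell to 1 in SS and 4 in SC, promoter members to 1 in SS and 2 in SC, and SS promoter members held to 1 in SC and 1 in CC. The median percentile of the members' strongest promoter peak was 67.6 in SS, 72.9 in SC and 17.8 in CC. It was 52.2, 60.4 and 16.5 among promoter peaks only, 74.5, 76 and 13.5 by q-value, and 56 in SS and 64.9 in SC among matched pairs. The median offset from the start was 238 bp by peak middle in SS and in SC and 0 bp by nearest edge. In CC it was 298 and 254 bp. Read depth was not analysed here.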

Other observations

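Peaks that carry no member's name lay near several of these genes. The strongest was 12602 bp upstream of the annotated Nr4a1 start, at chromosome 15, 101253865 to 101254622 in SS. The authors' annotation calls it intergenic, while the RefSeq gene record of Nr4a1 on GRCm38.p6 begins at 101253902, inside the peak. Its fold enrichment was 12.1 in SS (percentile 98.5) and 13.5 in SC (percentile 95.3), against percentiles 69.3 and 64 at the annotated start, and it had no counterpart in CS or CC. If it were counted for Nr4a1, its peak would exceed that of Nr4a2 in SS.

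An unassigned peak 26286 bp downstream of the Egr1 start had a fold enrichment of 8.74 in SS (percentile 85.3) and 9.96 in SC (percentile 80.6), each above that of the Egr1 promoter in the same list (percentiles 76 and 73.5). A weak unassigned peak 4914 bp upstream of Egr4 in SS (3.25, percentile 17.4) was overlapped by a CC peak 4869 bp upstream (4.11, percentile 12.3, q = 0.0123), although Egr4 itself had no CC peak. At neighbouring genes within 30 kb, the promoter of Bin3 near Egr3 had a peak in all 4 lists, at percentiles 49.7 (SS), 52.1 (SC), 33.6 (CS) and 88.1 (CC) of fold enrichment. The promoter of Ado near Egr2 had one at percentile 93 in SS, 83.1 in SC and 66.5 in CC. Other neighbours went the other way: the promoters of Reep2 (near Egr1), Fbxo41 (near Egr4) and Atg101 (near Nr4a1) were marked in SS and also in SC. Neither the CS nor the CC list had a peak at these promoters. Over all SS promoter genes, 28.8% were held in CS and 22.7% in CC, so Bin3 and Ado do not set neighbouring promoters apart.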
